A study of Mus musculus with 12 samples.

Results

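The genes described here are the numbered Zfp genes that thymocytes expressed. Of 339 gene symbols made of Zfp and a number in the deposited count tables, 233 were kept because at least 3 of the 12 libraries held 50 or more raw counts. The 2 targeted genes Zfp148 and Zfp281 and the RNA-binding CCCH gene Zfp36 were left out by name, and 103 symbols stayed below the threshold. The 233 genes are called members below. Because the members were chosen by their counts in these libraries, being expressed is not a finding. Zfp467 was written into the rule with its change already known, so its values are given as a description with no test.

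The study sorted immature thymocytes from mice for RNA-seq of whole populations, in 4 groups of 3 libraries, which asks what the joint loss of Zfp148 and Zfp281 does to T cells developing in the thymus. All 4 groups carried floxed alleles of both genes (Zfp148 fl/fl; Zfp281 fl/fl). The groups were dKO ImCD4 (both genes deleted by Cd4-Cre), control ImCD4 (floxed, without Cre), dKO ImCD8 and control ImCD8. ImCD4 cells were gated as CD44low, CD4+CD8-, H2-Kb- and CD69+, and ImCD8 cells as CD44low, CD8+CD4-, TCRb+ and CD69+, so the gates differ in more than CD4 and CD8. Cd4-Cre is a transgene driven by Cd4 regulatory sequence, which acts from the CD4 and CD8 double-positive stage of thymocyte development. The controls have no Cre, so what Cre does by itself and what the deletion does cannot be told apart. No ages are used here, and no label says that the libraries of a group came from separate mice, so every p-value refers to the spread among libraries, which may be technical.

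In the 6 ImCD8 libraries the genotype entry contradicts the title: Cre is recorded for the controls and not for the dKO libraries. The groups here follow the titles, and the targeted genes go with them. Zfp281 averaged 18.7 ± 2.62 CPM in dKO ImCD4 libraries and 486 ± 65.6 CPM in control ImCD4 libraries (SD, n = 3 each). It averaged 12.8 ± 2.36 CPM in the libraries titled dKO ImCD8 and 119.0 ± 7.94 CPM in those titled control ImCD8. Zfp148 averaged 66.5 ± 3.13 against 180 ± 3.02 CPM in ImCD4 and 54.9 ± 8.70 against 165 ± 4.84 CPM in ImCD8, dKO libraries first in each pair. All directions in ImCD8 below rest on the titles. Levels are given as CPM, the usual depth-normalised count, on library sizes scaled by the TMM method, which corrects for differences in RNA composition.

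The libraries held between 7315833 and 10943143 counts assigned to genes. Summed T cell markers were alike in every group, from 7190 to 8260 CPM, and summed B cell markers stayed at or below 3.51 CPM. CD4 lineage markers summed to 1590 to 1910 CPM in ImCD4 libraries and to 4.68 to 19.9 CPM in ImCD8 libraries, while CD8 lineage markers summed to 4510 to 4790 CPM in ImCD8 and 121 to 294 CPM in ImCD4. On principal component 3 of all genes, the last listed library of each group (replicate 3) lay below its group's other two. In ImCD4, several measures besides the deletion separated dKO from control libraries without overlap, among them the assigned counts, 9319732 to 10943143 in dKO and 8276742 to 9173424 in control libraries. The summed level of the 6 myeloid and dendritic markers was 67.5 to 74.0 CPM in dKO and 41.0 to 49.5 CPM in control libraries. The 5 thymic epithelial markers summed to 5.55 to 6.96 CPM in dKO and 4.34 to 5.42 CPM in control ImCD4 libraries, and to 12.3 to 22.1 CPM in dKO and 8.96 to 10.4 CPM in control ImCD8 libraries. The share of reads outside annotated genes was 10.5 to 12.9% in dKO and 13.6 to 16.4% in control ImCD4 libraries. The part of these differences in the results below was not tested. In bulk RNA, fewer cells of a type and less RNA per cell cannot be told apart.

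Zfp symbols name mouse proteins with zinc fingers, mostly of the C2H2 type, in which each finger is a short fold held by a zinc ion and tandem fingers read DNA. Many carry a KRAB box, which recruits the co-repressor KAP1 (Trim28) and through it the histone methyltransferase Setdb1 to silence transposons and imprinted loci. Others have a SCAN domain for pairing with each other, or have fingers alone and act as activators, as parts of chromatin complexes or on RNA. In T cell development, members of this naming group have been tied to thymocyte maturation (Zfp335), to control of the recombinase genes Rag1 and Rag2 (Zfp608 and Zfp609) and to tissue-resident and innate-like lymphocytes (Zfp683, also called Hobit).

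In the GENCODE M21 annotation (GRCm38), 232 members were found by symbol and 231 had a coding sequence. The exceptions are Zfp607, which that annotation does not list, and Zfp783, which it lists as a pseudogene. By letter patterns searched in the translated coding sequences, 128 members held a KRAB box and 103 did not, and 11 held a SCAN domain, 4 of them together with a KRAB box. KRAB members had a median of 12 C2H2 fingers (range 2 to 23), against 7 (range 0 to 36) in the other members. The finger pattern was matched at most once in 13 members, though the pattern can miss degenerate fingers. Members sat on 20 chromosomes, with 61 on chromosome 7 (35 KRAB), 29 on chromosome 17 (24 KRAB) and 22 on chromosome 13 (18 KRAB).

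Most members were expressed at low levels. The median over members was 4.24 CPM per kilobase of exon, and KRAB members lay lower, at a median of 3.44, than the others, at 6.61 CPM per kilobase. The 5 highest per kilobase all lacked a KRAB box. Zfp706, a small protein with a single finger that represses Klf4 in mouse embryonic stem cells, averaged 76.7 CPM per kilobase over the 12 libraries. Zfp207 (BuGZ), which binds kinetochores and spindle microtubules, followed at 46.6. Zfp740 averaged 40.5, Zfp422 39.7 and Zfp592, a partner of Zfp687 in a ZMYND8 chromatin complex, 27.4 CPM per kilobase. Other genes share 17.7% of the 50-base windows of Zfp422, so its level is less certain. At the count threshold, Zfp934 and Zfp946 had 50 counts in the library that decided their inclusion and Zfp428 had 51, while Zfp583 and Zfp647, with 49, and Zfp524, with 48, fell just outside. In all 12 libraries, 198 members reached the threshold. Of the 35 others, 11 had fewer than 3 libraries at 50 counts outside a single group, so their inclusion itself depended on a group.

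The promoters of the members that were lower in both dKO populations are shown first, because the deleted proteins Zfp148 and Zfp281 are known to bind G-rich DNA. The sequences are RefSeq promoter windows (GRCm38.p6), from 250 bases before a transcript's start to 50 after it, 5′ to 3′ on the gene's strand. Capitals mark the G-rich 9-mer GGGGAGGGG or its reverse complement CCCCTCCCC, both searched. The Zfp467 window is chr6:48445041-48445340 on the minus strand, the only one of that gene in the table. Zfp687 has 2 windows, and both are shown: chr3:95015408-95015707, the nearer to the annotated gene start, and chr3:95015189-95015488, the farther, both on the minus strand. The Zfp219 window is chr14:52020684-52020983 on the minus strand, the nearer of its 2 windows to the annotated gene start, and the Zfp553 window is chr7:127232811-127233110 on the plus strand. By the window nearest the annotated gene start, Zfp467 alone of these 4 genes holds the motif, and the farther window of Zfp687 holds it too.
Zfp467: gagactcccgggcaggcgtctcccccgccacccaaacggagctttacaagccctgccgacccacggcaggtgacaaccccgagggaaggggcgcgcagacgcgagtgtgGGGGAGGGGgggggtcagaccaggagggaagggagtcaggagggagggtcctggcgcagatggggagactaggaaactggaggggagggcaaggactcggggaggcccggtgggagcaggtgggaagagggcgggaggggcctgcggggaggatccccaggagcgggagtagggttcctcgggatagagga
Zfp687, nearer window: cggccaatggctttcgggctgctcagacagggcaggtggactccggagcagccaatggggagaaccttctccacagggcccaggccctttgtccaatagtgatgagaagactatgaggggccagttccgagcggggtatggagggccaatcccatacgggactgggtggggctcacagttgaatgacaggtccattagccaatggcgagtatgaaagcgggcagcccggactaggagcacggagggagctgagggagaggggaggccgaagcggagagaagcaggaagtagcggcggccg
Zfp687, farther window: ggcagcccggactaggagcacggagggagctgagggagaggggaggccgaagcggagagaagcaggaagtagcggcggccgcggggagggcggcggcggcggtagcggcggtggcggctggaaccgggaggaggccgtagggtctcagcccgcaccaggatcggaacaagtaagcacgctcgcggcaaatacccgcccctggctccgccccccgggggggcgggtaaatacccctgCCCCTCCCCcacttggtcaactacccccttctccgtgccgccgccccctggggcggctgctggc
Zfp219: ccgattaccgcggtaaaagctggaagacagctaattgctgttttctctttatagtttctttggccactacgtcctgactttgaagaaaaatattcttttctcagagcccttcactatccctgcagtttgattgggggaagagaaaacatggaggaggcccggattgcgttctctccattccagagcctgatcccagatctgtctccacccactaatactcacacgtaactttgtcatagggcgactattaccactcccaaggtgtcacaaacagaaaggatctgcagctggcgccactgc
Zfp553: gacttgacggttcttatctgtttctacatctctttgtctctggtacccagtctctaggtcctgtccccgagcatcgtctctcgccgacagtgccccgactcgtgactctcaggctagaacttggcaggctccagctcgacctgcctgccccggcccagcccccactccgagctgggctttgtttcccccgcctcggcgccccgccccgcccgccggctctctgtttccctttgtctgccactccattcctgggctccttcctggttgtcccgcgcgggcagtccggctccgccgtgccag

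Over the whole table of promoters, 6.37% of 32851 windows held the motif. Of 195 members matched to the table by symbol, 17 of 238 windows held it, which is 7.14%. By class, it was in 3.79% of 132 windows of KRAB members and in 11.4% of 105 windows of the others, whose median GC content was 61.3%, against 53.7% for KRAB members and 52.7% for all windows. The second Zfp219 window held no match, and neither did the window of Zfp3 (chr11:70764197-70764496). Zfp608 was not matched. A match describes these letters and does not show binding, and no match says nothing of binding elsewhere.

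In dKO ImCD4 thymocytes, 5 members were higher and 17 were lower than in control ImCD4 thymocytes, counting Zfp467 among the lower (16 without it). A call here is an adjusted p under 0.05 in edgeR's quasi-likelihood test, with Benjamini-Hochberg adjustment over all 13383 genes tested. The 5 higher members are 2.15% of the 233, where 7.26% of all genes tested were called higher, or 8.9% of the 10180 genes that met the same count threshold. The 17 lower members are 7.30%, where 6.16% of all genes tested were called lower, or 6.53% of the genes at the same threshold. So the share of lower members was near the background, and the share of higher members was below it. The median log2 fold change was -0.01 over members and 0.02 over all genes, and 211 members were not called. None of the 128 KRAB members was higher and 6 were lower. Of the 198 members at the threshold in all 12 libraries, 2 were higher and 15 lower. The counts rested on single libraries in part: without control replicate 1, 2 members were higher and 9 lower, and without dKO replicate 2, 3 were higher and 11 lower. Without control replicate 2, control replicate 3 or dKO replicate 3, 3 members were higher. Without the replicate 3 library of every group, 5 were higher and 13 lower, of which 4 and 12 were calls of the full set.

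In dKO ImCD8 thymocytes, 2 members were higher and 6 were lower than in control ImCD8 thymocytes (5 lower without Zfp467). The higher members are 0.858% of the 233, where 2.62% of all genes tested and 3.19% of the genes at the count threshold were called higher. The lower members are 2.58%, where 3.53% of all genes tested and 4.06% of the genes at the threshold were called lower. The median log2 fold change was -0.01 over members and 0.01 over all genes, and the members' median changed sign with RLE size factors. No KRAB member was higher and 1, Zfp282, was lower. No member was higher without control replicate 1, dKO replicate 1 or dKO replicate 2, and 1 was without control replicate 2. Without control replicate 3, 2 members were higher, neither of them Zfp3 or Zfp180. Over both populations, 209 members were called in neither comparison. No member was called in opposite directions in the 2 populations. The shares of all genes called in neither, in both or in opposite directions were not counted. These counts, and the number of members called in both below, are therefore not read as particular to the members.

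**Figure D1:**
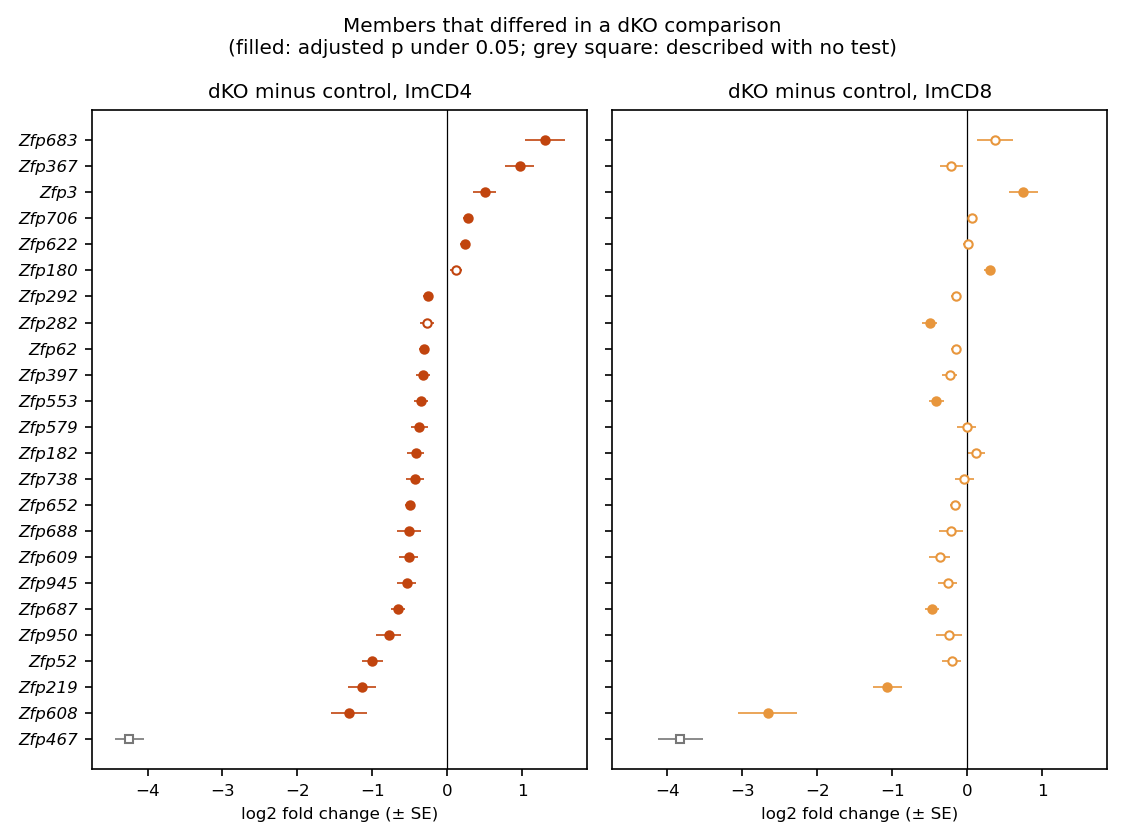
Log2 fold change of dKO over control with its standard error (x axis) for the 24 members that differed in either population (y axis), ImCD4 on the left and ImCD8 on the right. Filled points passed an adjusted p of 0.05, open points did not, and the grey square is Zfp467, shown as a description. After Zfp467, at -4.24 in ImCD4, the next largest falls are Zfp608 and Zfp219.

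Zfp467 lies at chr6:48427697-48445825 (GRCm38, minus strand) and encodes a protein with 12 C2H2 fingers and no KRAB box, known in mouse for promoting fat cell over bone cell fate. It had 3.12, 3.06 and 3.85 CPM in dKO ImCD4 libraries, against 59.0, 54.4 and 76.1 CPM in control ImCD4 libraries. In ImCD8 it had 0.381, 1.01 and 0.455 CPM in dKO libraries, against 11.4, 8.17 and 8.61 CPM in control libraries. Every dKO library was below every control library of its population, and the ImCD8 controls lay well below the ImCD4 controls. As a description, the fitted difference was -4.24 ± 0.19 on the log2 scale in ImCD4 and -3.83 ± 0.30 in ImCD8 (SE).

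Zfp608 also fell in both populations. It lies on chromosome 18 and encodes a large protein with a single matched finger that lowers Rag1 and Rag2 expression when it is overexpressed in developing mouse T cells. In ImCD4 it had 5.44, 4.98 and 6.63 CPM in dKO libraries, against 16.6, 10.3 and 15.5 CPM in control libraries. In ImCD8 the values were 0.254, 0.920 and 0.455 CPM in dKO libraries, against 4.37, 4.23 and 2.66 CPM in control libraries. The groups did not overlap in either population, and the ImCD8 levels rest on few counts. The log2 fold change was -1.31 ± 0.24 in ImCD4 (SE, edgeR adjusted p = 0.00191) and -2.66 ± 0.39 in ImCD8 (edgeR adjusted p = 0.000457). The difference between these changes, 1.35 ± 0.48, was not called (edgeR adjusted p = 0.327).

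Zfp219 (chr14:52006077-52020733, minus strand), a transcriptional repressor with 9 fingers that is also a partner of Sox9 in cartilage, was lower by about the same amount in both populations. It had 29.4, 30.5 and 23.5 CPM in dKO ImCD4 libraries, against 63.7, 63.9 and 56.6 CPM in control ImCD4 libraries. In ImCD8 it had 20.8, 19.3 and 10.1 CPM in dKO libraries, against 34.3, 39.0 and 32.2 CPM in control libraries. The groups were apart in each population, and the replicate 3 library was the lowest of all 4 groups. The log2 fold changes were -1.14 ± 0.18 in ImCD4 (edgeR adjusted p = 0.00117) and -1.06 ± 0.20 in ImCD8 (edgeR adjusted p = 0.00540). Of its exon bases, 12.7% lie opposite exons of other genes such as Arhgef40, and whether the counting used strand is not stated, so part of its counts could belong to them.

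Zfp687 (chr3:95006590-95015448, minus strand), a subunit with Zfp592 and Zfp532 of the ZMYND8 chromatin complex, had 50.2, 45.3 and 45.1 CPM in dKO ImCD4 libraries, against 70.3, 74.6 and 77.3 CPM in control ImCD4 libraries. The ImCD8 values were 38.0, 46.2 and 39.9 CPM in dKO libraries, against 64.1, 51.1 and 56.8 CPM in control libraries. No dKO library reached a control library of its population. The log2 fold changes were -0.66 ± 0.10 in ImCD4 (edgeR adjusted p = 0.000277) and -0.47 ± 0.10 in ImCD8 (edgeR adjusted p = 0.00825). Without control replicate 1, the ImCD8 call was lost (adjusted p = 0.0582). Zfp592 itself, at 215 ± 9.60 CPM in dKO and 213 ± 7.20 CPM in control ImCD4 libraries, was not called (log2 fold change 0.02 ± 0.07, edgeR adjusted p = 0.912).

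Zfp553 (chr7:127233061-127238179, plus strand), with 12 fingers and no KRAB box, had the smallest fall of the members lower in both populations. It had 47.4, 49.6 and 44.8 CPM in dKO ImCD4 libraries, against 62.5, 63.5 and 54.8 CPM in control ImCD4 libraries. In the ImCD8 population it had 43.1, 38.4 and 32.9 CPM in dKO libraries, against 52.0, 49.3 and 50.7 CPM in control libraries. The groups did not overlap in either population. The log2 fold changes were -0.35 ± 0.10 (edgeR adjusted p = 0.0236) in ImCD4 and -0.41 ± 0.10 (edgeR adjusted p = 0.0180) in ImCD8. Leaving out control replicate 1 or 2 or dKO replicate 1 or 3 ended the ImCD4 call (adjusted p up to 0.0953), and leaving out control replicate 1 or 3 or dKO replicate 3 ended the ImCD8 call (adjusted p up to 0.0781).

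Zfp3 (chr11:70764209-70772928, plus strand), with 13 fingers and no KRAB box, was the member called higher in both. It had 19.5, 20 and 15.9 CPM in dKO ImCD4 libraries, against 14.1, 13.8 and 11.3 CPM in control ImCD4 libraries. In ImCD8 it had 6.99, 7.18 and 5.23 CPM in dKO libraries, against 4.26, 3.52 and 3.72 CPM in control libraries. Each dKO library exceeded every control library of its population. The log2 fold changes were 0.50 ± 0.15 in ImCD4 (edgeR adjusted p = 0.0414) and 0.75 ± 0.19 in ImCD8 (edgeR adjusted p = 0.0289). The ImCD4 call was lost when any single ImCD4 library other than dKO replicate 3 was left out (adjusted p up to 0.154). Likewise, the ImCD8 call was lost when any single ImCD8 library other than dKO replicate 3 was left out (adjusted p up to 0.0989).

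**Figure D2:**
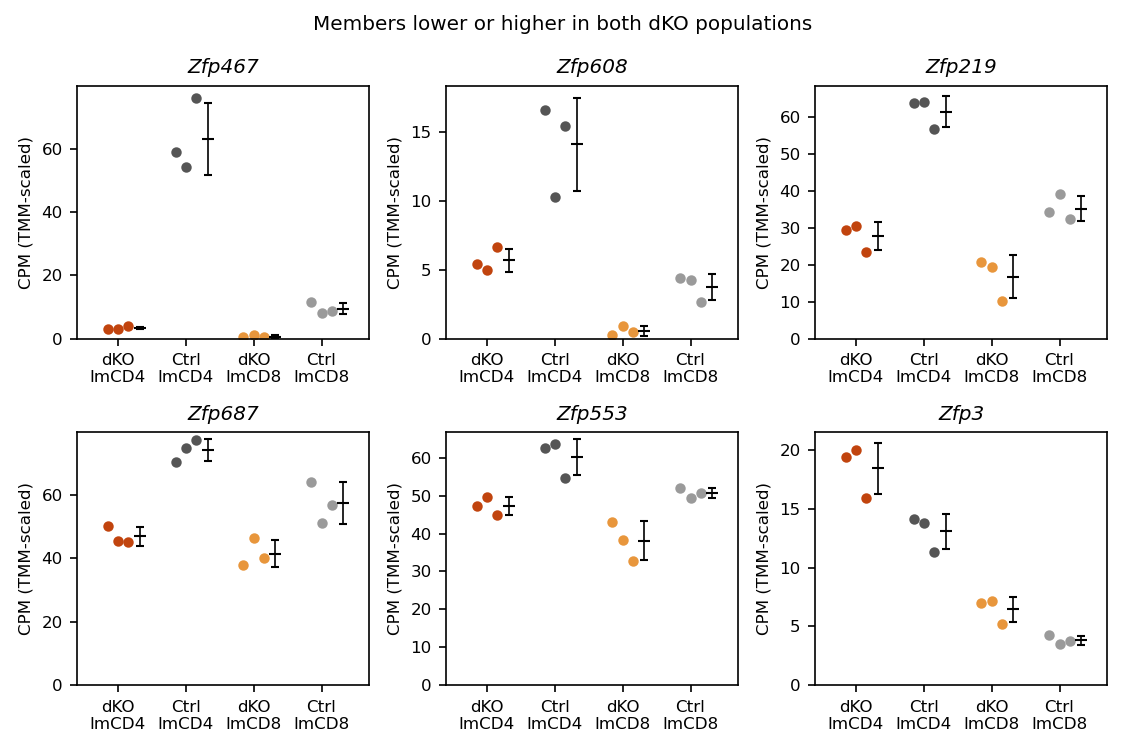
CPM on TMM-scaled library sizes (y axis) in each of the 12 libraries (points), by group, for the 6 members that were lower or higher in both dKO populations. Dashes with bars are means ± SD of 3 libraries. Zfp467, Zfp608, Zfp219, Zfp687 and Zfp553 are lower and Zfp3 is higher in each dKO group than in its control group.

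Among the members called higher in ImCD4, Zfp683 had the largest change. It had 5.26, 4.02 and 5.88 CPM in dKO ImCD4 libraries, against 2.47, 1.44 and 2.23 CPM in control ImCD4 libraries, with no overlap. The log2 fold change was 1.30 ± 0.26 (edgeR adjusted p = 0.00390). In ImCD8 its values of 6.61, 4.60 and 7.05 CPM in dKO libraries overlapped the 5.38, 4.37 and 4.25 CPM of control libraries. Zfp683 reached the count threshold in 5 libraries, 3 of them dKO ImCD8 and 2 dKO ImCD4, so its inclusion depended on its being high in dKO libraries and its rise is not independent of the rule.

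Zfp367 (chr13:64133018-64153202, minus strand) had 7.49, 7.37 and 7.91 CPM in dKO ImCD4 libraries, against 2.83, 4.97 and 3.82 CPM in control ImCD4 libraries. Its ImCD8 values were 19.9, 19.0 and 24.0 CPM in dKO libraries, against 21.7, 27.9 and 23.4 CPM in control libraries. It was thus apart in ImCD4 and overlapping in ImCD8. The log2 fold change was 0.96 ± 0.20 in ImCD4 (edgeR adjusted p = 0.00405) and -0.21 ± 0.15 in ImCD8 (edgeR adjusted p = 0.512). The difference between the 2 changes, 1.176 ± 0.25, had the smallest p of any member and missed the threshold (edgeR adjusted p = 0.0538). It passed under 6 alternatives and not under the others tried, among them RLE size factors and library size scaling alone. DESeq2 gave an adjusted p of 0.00513 and limma-voom with quality weights 0.0442. Of its exon bases, 10.9% overlap the antisense gene Gm47513. In a search of both strands, 10.2% of its 50-base windows recur in other genes, most in that same gene.

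The other 2 members called higher in ImCD4 were abundant and changed little. Zfp706 had 409, 418 and 452 CPM in dKO ImCD4 libraries, against 339, 335 and 382 CPM in control ImCD4 libraries, a log2 fold change of 0.28 ± 0.07 (edgeR adjusted p = 0.0158). Zfp622, a maturation factor of the large ribosomal subunit, had 82.2, 85.4 and 86.6 CPM in dKO ImCD4 libraries, against 74.1, 74.8 and 67.2 CPM in control ImCD4 libraries. Its log2 fold change was 0.23 ± 0.07 (edgeR adjusted p = 0.0315). Neither group pair overlapped. Zfp706 missed the threshold when control replicate 1, control replicate 2 or dKO replicate 3 was left out (adjusted p up to 0.0765). Zfp622 missed it when control replicate 1, control replicate 3, dKO replicate 2 or dKO replicate 3 was left out (adjusted p up to 0.128) and without all 4 replicate 3 libraries (adjusted p = 0.199). Neither gene was called in ImCD8, where the log2 fold changes were 0.07 ± 0.07 for Zfp706 and 0.01 ± 0.07 for Zfp622.

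Of the members lower in ImCD4 and not called in ImCD8, the KRAB gene Zfp52 (chr17:21535539-21562601, plus strand, 14 fingers) had the largest fall. It had 6.25, 5.93 and 6.63 CPM in dKO ImCD4 libraries, against 13.9, 12.2 and 11.7 CPM in control ImCD4 libraries. Its ImCD8 levels were 17.02, 16.5 and 15.2 CPM in dKO libraries, against 19.4, 20.1 and 16.9 CPM in control libraries. The ImCD4 groups were far apart and the ImCD8 groups overlapped slightly. The log2 fold change was -1.002 ± 0.14 in ImCD4 (edgeR adjusted p = 0.000179) and -0.21 ± 0.13 in ImCD8 (edgeR adjusted p = 0.411). The difference of the 2, -0.79 ± 0.19, was not called (edgeR adjusted p = 0.0955), but was with a model term for the 4 replicate 3 libraries (-0.79, edgeR adjusted p = 0.0355).

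A pair of further KRAB genes fell by less. Zfp950 had 26.4, 22.0 and 24.0 CPM in dKO ImCD4 libraries, against 42.4, 37.2 and 45.0 CPM in control ImCD4 libraries, a log2 fold change of -0.78 ± 0.17 (edgeR adjusted p = 0.00710). Zfp945 had 20.5, 20.5 and 17.6 CPM in dKO ImCD4 libraries, against 32.5, 29.2 and 24.0 CPM in control ImCD4 libraries, a log2 fold change of -0.54 ± 0.13 (edgeR adjusted p = 0.0102). Both were without overlap, but the Zfp950 call was lost without the 4 replicate 3 libraries (adjusted p = 0.0767) and the Zfp945 call without control replicate 1 (adjusted p = 0.0644). Zfp609, the relative of Zfp608 that in mouse thymocytes opposes its effect on the Rag genes, had 19.3, 15.8 and 17.1 CPM in dKO ImCD4 libraries, against 26.5, 26.5 and 21.7 CPM in control ImCD4 libraries. Its log2 fold change was -0.52 ± 0.13 (edgeR adjusted p = 0.0160), and leaving out control replicate 1, control replicate 2 or dKO replicate 2 ended the call (adjusted p up to 0.0807). None of these genes was called in ImCD8, but their means were lower in dKO there too. In CPM per kilobase, dKO ImCD8 first, they were 2.36 and 2.78 for Zfp950, 2.55 and 3.08 for Zfp945 and 1.49 and 1.92 for Zfp609.

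The 8 remaining members lower in ImCD4 were Zfp688, Zfp652, Zfp738, Zfp182, Zfp579, Zfp397, Zfp62 and Zfp292, named to complete the count after their values were seen. Their log2 fold changes lay between -0.51 for Zfp688 and -0.26 for Zfp292, and none of them was called in ImCD8. The calls of Zfp652 and Zfp62 held under every alternative tried. Those of Zfp688, Zfp738, Zfp182, Zfp579 and Zfp397 were each lost without control replicate 1, without control replicate 3 and without dKO replicate 2, among others, with adjusted p up to 0.178 for Zfp688. That of Zfp292 was lost without control replicate 2 (adjusted p = 0.0541) or dKO replicate 1 (adjusted p = 0.0591). Zfp652, a repressor that in human cells works with CBFA2T3, had a log2 fold change of -0.50 ± 0.07 (edgeR adjusted p = 0.000179). But 19.3% of its exon bases lie opposite other genes, and 18.6% of its 50-base windows recur in other genes on either strand. The gene sharing most of these windows, Abi3, is also a gene that overlaps it. Zfp738 shares 17.8% of its 50-base windows. Reads of such genes could be split or misassigned by the counting. Over all members, the median share of such windows was 1.32%, and 41 members had at least 10%. Both strands of other genes were searched, so exons that overlap at the same place are part of this share. At least 10% of exon bases overlapped other genes in 26 members.

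In ImCD8, 2 members were called that were not called in ImCD4. Zfp282, a KRAB gene whose human counterpart binds a viral repeat and represses from it, had 26.6, 29.0 and 26.0 CPM in dKO ImCD8 libraries, against 38.9, 40.3 and 36.8 CPM in control ImCD8 libraries. Its log2 fold change was -0.50 ± 0.10 (edgeR adjusted p = 0.00495). In ImCD4 the groups were also apart, at 32.7, 34.7 and 32.4 CPM in dKO against 37.7, 45.4 and 37.4 CPM in control libraries, without passing the test (edgeR adjusted p = 0.0737). Zfp180 had 57.5, 56.2 and 56.4 CPM in dKO ImCD8 libraries, against 44.7, 48.2 and 45.6 CPM in control ImCD8 libraries, a log2 fold change of 0.30 ± 0.08 (edgeR adjusted p = 0.0307). The Zfp180 groups were apart, but the call was lost when any single ImCD8 library other than control replicate 2 was left out, with adjusted p up to 0.126.

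A different effect of the deletion in the 2 populations was called for none of the members, where 0.254% of all genes tested had a more positive change in ImCD4 and 0.179% a more negative one. At an unadjusted p under 0.05 the change was more positive in ImCD4 for 9 members and more negative for 10, which are 3.86% and 4.29% of the members, where 5.75% and 4.24% of all genes tested were at that p. These shares are near or below the background. DESeq2 and limma-voom each called 1 member, Zfp367. A call in a single population above therefore does not show a difference between the populations.

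The members were also read by lists of known roles. Of all genes tested, 7.26% were called higher and 6.16% lower in dKO ImCD4, and 2.62% higher and 3.53% lower in dKO ImCD8. Of 7 members with T cell or lymphocyte roles, 1 was higher (Zfp683) and 2 lower (Zfp608 and Zfp609) in dKO ImCD4, and 1 was lower (Zfp608) in dKO ImCD8. Zfp683 was included through dKO libraries alone, so its rise is not independent of the rule. The list's median log2 fold change was -0.07 in ImCD4 and 0.11 in ImCD8. Of 6 KRAB repressors of transposons and imprinted loci, none was called in either dKO comparison. They include Zfp445, which keeps imprints together with Zfp57, at 112 ± 1.19 CPM in dKO and 121 ± 6.53 CPM in control ImCD4 libraries. They also include Zfp809, which silences murine leukaemia virus sequences, at 25.5 ± 2.77 CPM in dKO and 29.8 ± 0.263 CPM in control ImCD4 libraries (log2 fold change -0.22 ± 0.10, edgeR adjusted p = 0.181). Of 11 chromatin and co-repressor partners, 3 were lower in dKO ImCD4. These were Zfp687, Zfp219 and Zfp532, which is no member because its counts were too low. In dKO ImCD8, 2 of the 11 were lower, Zfp687 and Zfp219. Of 11 genes for RNA, ribosome and genome maintenance, Zfp622 was higher in dKO ImCD4 and none was called in dKO ImCD8.

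KRAB proteins act through KAP1, so its machinery was read beside them. Of 14 tested genes, Setdb1, Cbx1 and Cbx3 were lower in dKO ImCD4, where 6.16% of all genes tested were, and Trim28 and Cbx1 were lower in dKO ImCD8, where 3.53% of all genes tested were. Trim28 averaged 176 ± 10.4 CPM in dKO and 209 ± 1.99 CPM in control ImCD8 libraries, a log2 fold change of -0.25 ± 0.07 (edgeR adjusted p = 0.0462). Setdb1 averaged 83.1 ± 5.45 CPM in dKO and 106 ± 8.64 CPM in control ImCD4 libraries, a log2 fold change of -0.36 ± 0.10 (edgeR adjusted p = 0.0242). Trim28 was not called in ImCD4, nor Setdb1 in ImCD8. The calls of this list were not recomputed under the alternatives or with libraries left out. The list's median was -0.14 in ImCD4 and -0.11 in ImCD8, against 0.02 and 0.01 over all genes tested.

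More members were called between the lineages than between the genotypes. In control cells, 18 members were higher and 71 lower in ImCD8 than in ImCD4 thymocytes (70 lower without Zfp467). The higher members are 7.73%, where 23.1% of all genes tested and 26.4% of the genes at the count threshold were called higher. The lower members are 30.5%, where 22.1% of all genes tested and 24.2% of the genes at the threshold were called lower. The share of higher members was thus below the background and that of lower members above it. In dKO cells, 27 members were higher, where 22.1% of all genes were, and 71 lower, where 21.6% were. The median log2 fold change over members was -0.14 in control and -0.13 in dKO cells, against -0.01 and -0.001 over all genes. In both genotypes together, 54 members were lower and 15 higher in each comparison. The share of all genes tested that were called the same way in both genotypes was not counted. The 54 and 15 are therefore not read as particular to the members.

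Most of the lower calls were members without a KRAB box. In control cells, 46 of 103 were lower in ImCD8, with a median log2 fold change of -0.22, against 25 of 128 KRAB members, with a median of -0.09. These are 44.7% and 19.5%, where 22.1% of all genes tested were lower. Called higher were 8.74% of members without a KRAB box and 6.25% of KRAB members, where 23.1% of all genes tested were. In dKO cells, 44 of the 103 and 27 of the 128 were lower, with medians of -0.17 and -0.07. These are 42.7% and 21.1%, where 21.6% of all genes tested were lower. The share of lower KRAB members was thus near the background, and that of the other members above it. In control cells the share called higher was below the background in both classes. The KRAB median of -0.09 in control cells also lay below the -0.01 over all genes tested. The members without a KRAB box also had higher levels, with a median of 32.8 CPM against 16.2 CPM for KRAB members. The part of that gap in the counts of calls was not tested.

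**Figure D3:**
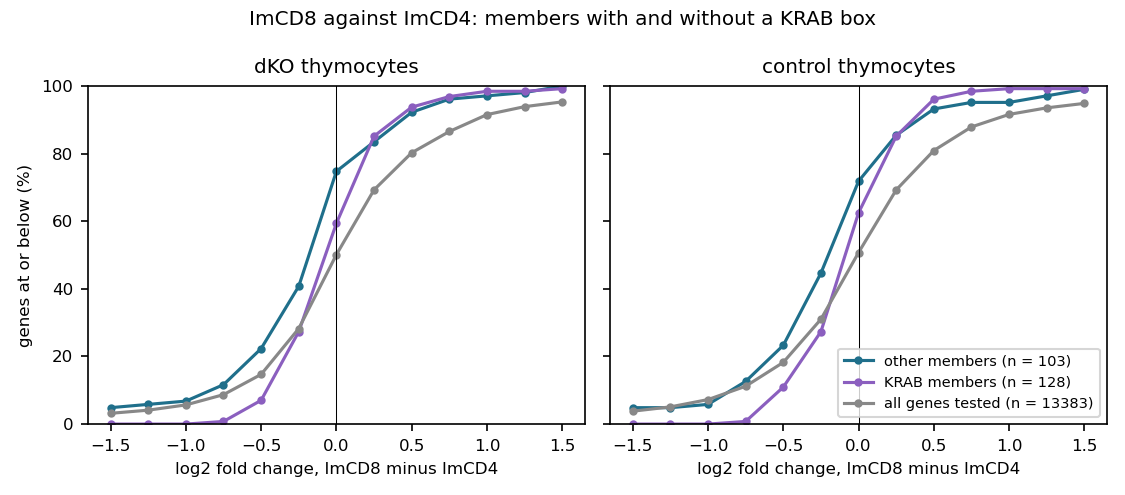
Percentage of genes (y axis) at or below each log2 fold change of ImCD8 over ImCD4 (x axis), in dKO cells on the left and control cells on the right, for members without a KRAB box, KRAB members and all genes tested. In control cells 71.8% of members without a KRAB box, 62.5% of KRAB members and 50.7% of all genes lie at or below 0.

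The share of each library's gene counts held by all members was also lower in ImCD8 than in ImCD4 libraries. It was 0.721 to 0.797% in dKO ImCD8 and 0.739 to 0.797% in control ImCD8 libraries. It was 0.884 to 0.898% in dKO ImCD4 and 0.917 to 0.932% in control ImCD4 libraries. The dKO and control ranges overlapped in ImCD8 and did not in ImCD4, where the control shares without Zfp467 were 0.911 to 0.924%, against 0.883 to 0.898% in dKO libraries. These shares are of raw counts without TMM scaling, and no other gene set was put beside them. In the fit with TMM scaling, 118 members had a negative and 115 a positive log2 fold change in dKO ImCD4. The ImCD4 shares are therefore not read as a fall of the members as a set.

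**Figure D4:**
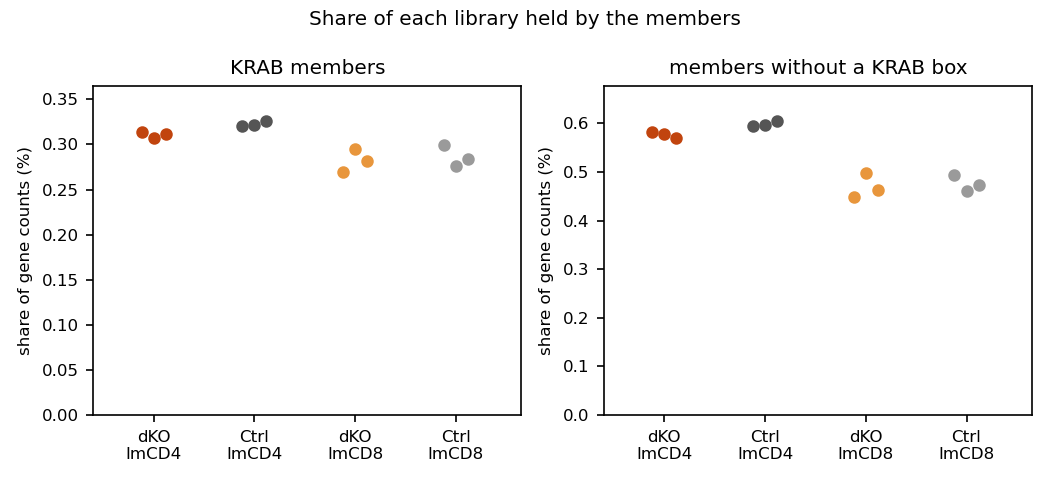
Share of each library's gene counts held by KRAB members (left) and by members without a KRAB box (right), in percent (y axis), with 1 point per library in the 4 groups. Both shares are lower in the ImCD8 groups, and KRAB members hold 0.307 to 0.314% in dKO ImCD4 libraries and 0.321 to 0.326% in control ImCD4 libraries.

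Largest among the members lower in control ImCD8, besides Zfp467, was Zfp821 (chr8:109705546-109724932, plus strand). It had 13.1, 9.72 and 9.46 CPM in control ImCD8 libraries, against 69.0, 65.4 and 71.4 CPM in control ImCD4 libraries. It had 14.9, 17.02 and 10.2 CPM in dKO ImCD8 libraries, against 72.2, 74.1 and 76.6 CPM in dKO ImCD4 libraries. The lineages were separated by a wide gap in both genotypes, with log2 fold changes of -2.67 ± 0.15 in control (edgeR adjusted p = 1.28e-09) and -2.39 ± 0.14 in dKO cells (edgeR adjusted p = 2.70e-09). The genotypes did not differ in either lineage by the test.

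Zfp704 had 1.57, 0.986 and 1.28 CPM in control ImCD8 libraries, against 6.48, 6.63 and 4.45 CPM in control ImCD4 libraries, a log2 fold change of -2.16 ± 0.30 (edgeR adjusted p = 2.48e-05). It passed the count threshold through ImCD4 libraries alone, so its direction follows from the rule. Of its exon bases, 16.55% lie opposite the gene C030034L19Rik, so part of its counts could belong to that gene. Zfp770 had 9.53, 9.30 and 7.23 CPM in control ImCD8 libraries, against 21.2, 22.4 and 17.9 CPM in control ImCD4 libraries, a log2 fold change of -1.24 ± 0.15 (edgeR adjusted p = 5.96e-06). Neither pair of groups overlapped. Zfp608, with -1.92 ± 0.26 (edgeR adjusted p = 1.91e-05), and Zfp3, with -1.76 ± 0.18 (edgeR adjusted p = 1.04e-06), were also lower in control ImCD8, from the values given above. Zfp608 too passed the threshold through ImCD4 libraries alone.

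Zfp367 led the members higher in control ImCD8, with a log2 fold change of 2.64 ± 0.18 over control ImCD4 (edgeR adjusted p = 1.14e-08). Zfp53 (chr17:21488998-21510473, plus strand), a KRAB gene with 15 fingers, had 76.9, 62.1 and 90.9 CPM in control ImCD8 libraries, against 25.4, 20.6 and 20.1 CPM in control ImCD4 libraries. In dKO cells it had 86.6, 95.7 and 95.9 CPM in ImCD8, against 25.8, 25.9 and 27.1 CPM in ImCD4 libraries. The lineages were well apart in both genotypes, with log2 fold changes of 1.80 ± 0.13 in control (edgeR adjusted p = 1.49e-08) and 1.82 ± 0.12 in dKO cells (edgeR adjusted p = 1.03e-08). Zfp318, a nuclear protein required for IgD expression by mature B cells, had 43.6, 41.4 and 53.7 CPM in control ImCD8 libraries, against 17.7, 19.5 and 16.1 CPM in control ImCD4 libraries. Its log2 fold change was 1.39 ± 0.13 (edgeR adjusted p = 4.61e-07).

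The other named members higher in control ImCD8 had lower levels. Zfp580 had 17.3, 17.2 and 10.6 CPM in control ImCD8 libraries, against 6.95, 6.74 and 3.82 CPM in control ImCD4 libraries, a log2 fold change of 1.36 ± 0.31 (edgeR adjusted p = 0.00283). Its replicate 3 library was the lowest in all 4 groups. Zfp239 had 8.18, 8.87 and 7.97 CPM in control ImCD8 libraries, against 4.12, 4.20 and 3.603 CPM in control ImCD4 libraries, a log2 fold change of 1.07 ± 0.20 (edgeR adjusted p = 0.000378). Zfp825 had 10.5, 10.4 and 12.4 CPM in control ImCD8 libraries, against 5.89, 5.97 and 7.52 CPM in control ImCD4 libraries, a log2 fold change of 0.78 ± 0.20 (edgeR adjusted p = 0.00521). In none of the 3 did the groups overlap, and Zfp825 shares 29.5% of its 50-base windows with other genes.

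On chromosome 17, neighbours of Zfp53 moved in the same direction. In the order of the chromosome, Zfp54, Zfp51, Zfp53 and Zfp52 follow each other between 21423227 and 21562601 on the plus strand, and all 4 are KRAB genes called higher in control ImCD8. The log2 fold changes were 0.62 ± 0.16 for Zfp54 (edgeR adjusted p = 0.00458), 0.43 ± 0.09 for Zfp51 (edgeR adjusted p = 0.00126), 1.80 for Zfp53 and 0.58 ± 0.13 for Zfp52 (edgeR adjusted p = 0.00166). Zfp51 had 52.0, 50.6 and 48.6 CPM in control ImCD8 libraries, against 36.0, 34.3 and 41.4 CPM in control ImCD4 libraries, with no overlap. Zfp677 just before the run (log2 fold change 0.07, edgeR adjusted p = 0.722) and Zfp983 just after it (-0.22, edgeR adjusted p = 0.318) were not called. Of the 29 members on the chromosome, 6 were higher and 8 lower in control ImCD8, where 23.1% of all genes tested were higher and 22.1% lower, so the chromosome's members as a whole were near the background. The run was chosen after its values were seen, and of its 4 genes Zfp52 alone was called in a dKO comparison.

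**Figure D5:**
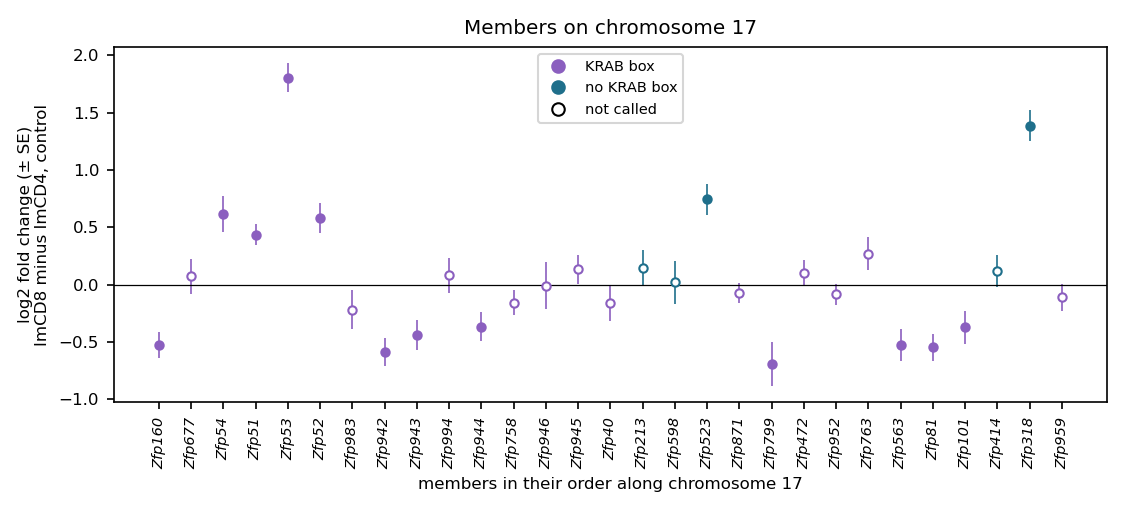
Log2 fold change of control ImCD8 over control ImCD4 with its standard error (y axis) for the 29 members on chromosome 17 in their order along it (x axis), by KRAB box (colour). Filled points passed an adjusted p of 0.05. Zfp54, Zfp51, Zfp53 and Zfp52 stand side by side above 0, and Zfp523 and Zfp318 are the other 2 higher members.

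The comparison of dKO with control ImCD4 and that of control ImCD8 with control ImCD4 share the 3 control ImCD4 libraries, so their values are set side by side without a measure of likeness. Zfp683 had a log2 fold change of 1.30 in the first and 1.19 in the second. Zfp367 had 0.96 and 2.64, and Zfp622 had 0.23 and 0.23. Zfp3 (0.50 and -1.76) and Zfp52 (-1.002 and 0.58) went opposite ways. Zfp219 had -1.14 and -0.81, and Zfp608 had -1.31 and -1.92. The Zfp683 rise in dKO ImCD4 is not independent of the rule, because the gene was included through dKO libraries alone. Zfp608 was included through ImCD4 libraries alone, so its second value is not independent of the rule either.

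Of the most abundant members per kilobase, Zfp207, Zfp740 and Zfp422 were lower in control ImCD8 than in control ImCD4. Zfp422 had 109, 120.3 and 111 CPM in control ImCD8 libraries, against 174, 164 and 167 CPM in control ImCD4 libraries, a log2 fold change of -0.57 ± 0.07 (edgeR adjusted p = 5.85e-06). Other genes share 17.7% of the 50-base windows of Zfp422, so its reads could be split or misassigned. Zfp740 had 184, 197 and 177 CPM in control ImCD8 libraries, against 239, 261 and 231 CPM in control ImCD4 libraries, a log2 fold change of -0.39 ± 0.09 (edgeR adjusted p = 0.00238). Neither pair overlapped. Zfp207 had a log2 fold change of -0.29 ± 0.09 (edgeR adjusted p = 0.0138), which missed the threshold without control ImCD4 replicate 1 (adjusted p = 0.0513) or control ImCD8 replicate 2 (adjusted p = 0.0799). None of these 3 was called in a dKO comparison.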

How the data were processed

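RNA from 12 sorted thymocyte libraries, 3 in each of 4 groups, was extracted with a micro column kit and amplified with a low-input SMARTer kit, per the labels' protocols. The deposited files hold raw counts of reads per gene symbol, made with cutadapt 1.18, STAR 2.6.1 and HTSeq on mm10, per the submitters' processing notes; which annotation was used, and whether strand was, is not stated there. Summary rows of unassigned reads were left out of library sizes, and reads outside annotated genes were 10.5 to 16.4% of the reads in the tables.

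From these counts, edgeR 4.0.16 (R 4.3.3) fitted 4 group means over all 12 libraries, with TMM factors, filterByExpr (minimum count 10, minimum total 15), robust quasi-likelihood tests and Benjamini-Hochberg adjustment over 13383 genes, at 0.05. All 233 members passed that filter. Limma 3.58.1 (voom with quality weights) and DESeq2 1.42.0 were alternatives, with other scalings, filters, member rules and left-out libraries. The test was also run on simulated counts. These had no lineage difference and no shift of the replicate 3 libraries, so that run says nothing of how either affects the calls. An exact permutation test of 3 against 3 libraries cannot go below 0.1, so none was used. No 2 libraries agreed within counting noise (smallest chi-square per degree of freedom 3.84). Replicate numbers follow the listing and pair no samples.

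Exon lengths, positions and coding sequences came from GENCODE M21 (GRCm38), promoters from RefSeq (GRCm38.p6). Finger, KRAB and SCAN counts rest on letter patterns and miss degenerate domains. The members, the role lists and the tests were chosen with earlier results of these data known. Genes named are Zfp467; in each dKO comparison up to 8 called members with the largest rise and 8 with the largest fall at 5 CPM or more without overlap; up to 6 each way between control lineages; the 5 highest per kilobase; role list members called in a dKO comparison or the 2 most abundant; and genes nearest the count threshold. Markers of other cell types were read as summed CPM.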

Additional observations from a re-analysis of the deposited data

How the results depend on the processing

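Members with low counts were measured less precisely: the median standard error of the log2 fold change was 0.166 in ImCD4 and 0.169 in ImCD8 among members below the median level of 20.5 CPM, and 0.098 and 0.099 among the others. No member without a call had an absolute change above 0.51 in ImCD4 or 0.61 in ImCD8. Counts of calls for small sets are unstable. In ImCD4, the 5 higher members became 3 with library size scaling alone, 3 without a filter on low counts, 9 with limma-voom and 2 among members at 50 counts in all 12 libraries. Leaving out each library in turn gave 2 to 5 higher and 9 to 18 lower. In ImCD8, the 2 higher members became 1 with limma-voom, 0 with only the 6 libraries compared and 1 among members at 50 counts in all 12 libraries, and leaving out each library gave 0 to 2 higher and 4 to 6 lower. A differing effect was called for 1 member with DESeq2, 1 with limma-voom, 1 without a filter and 2 with a model term for the 4 replicate 3 libraries (Zfp367, and there also Zfp52), and for 0 to 1 leaving out each library. The cause of these shifts was not tested. Between lineages, leaving out each library gave 13 to 18 higher and 59 to 72 lower in control cells, and 18 to 27 higher and 52 to 71 lower in dKO cells. With library size scaling alone, 14 were higher and 91 lower in control cells. Of 61 values of named members recomputed under the alternatives, none changed sign and 22 lost the call under at least 1 alternative. The values of Zfp467, given with no test, are among the 61 and could not lose a call. The others were recomputed because they were called in the full set, which makes a change of sign unlikely from the start. No paired analysis was possible because the labels give no replicate numbers that pair the groups; the term for the 4 replicate 3 libraries separates those libraries and pairs none.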
